A study of Homo sapiens with 4 samples.

Results

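The genes described here belong to the insulin-like growth factor (IGF) system of H1299 cells: 6 binding protein genes (IGFBP2, IGFBP3, IGFBP4, IGFBP5, IGFBP6 and IGFBP7), 3 receptor genes (IGF1R, INSR and IGF2R) and the docking protein gene IRS1. They are 10 of the 58735 genes of the deposited table, matched by gene name, and each of the 10 names had 1 row. The set was selected on the wild-type against knockout values of the same table, so the levels and fold changes of these 10 genes are given as a description and carry no p-value. Total RNA was sequenced from H1299, an established human line from a non-small cell lung cancer, in 2 libraries of untreated wild-type cells (WT) and 2 libraries of untreated cells in which TTC28 had been edited with CRISPR/Cas9 (TTC28-KO). Both groups were grown in RPMI1640 medium with fetal bovine serum. The labels do not say whether the knockout cells are 1 clone, nor whether replicates came from separate cultures, so p-values measure only the spread between these libraries, which may be technical.

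In the IGF system, the ligands IGF-I and IGF-II act on the receptor tyrosine kinase encoded by IGF1R, and insulin acts on its close relative encoded by INSR. Activated receptors phosphorylate IRS docking proteins, which pass the signal to PI3K and AKT. The product of IGF2R, the cation-independent mannose 6-phosphate receptor, carries lysosomal enzymes and takes up IGF-II for degradation without being a kinase. The secreted IGFBPs hold IGFs in the extracellular fluid, and proteases that cut IGFBPs release them again. Lung cancer cells are known to make several IGFBPs and to carry IGF1R.

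Library totals ranged from 25120500 to 28885443 counts. TTC28 was at 4.88 and 5.44 FPKM in the WT libraries and at 2.96 and 2.99 FPKM in the TTC28-KO libraries, a log2 fold change of -0.79 (SE 0.0763, adjusted p = 2.78e-06). FPKM divides fragment counts by gene length and library size. The transcript was still present, and counts summed over all exons say nothing of the edited site. TTC28 shares 7.38% of its exonic bases with TTC28-AS1 on the opposite strand. TTC28-AS1 had 243 and 258 counts in WT and 412 and 359 counts in TTC28-KO libraries, and its part in the TTC28 level was not tested. Of the markers of the line, KRT18 (138 to 170 FPKM), VIM (299.98 to 366 FPKM) and KRT8 (23.7 to 42.0 FPKM) were abundant, while KRT19 reached 0.0629 and EPCAM 0.214 FPKM at most. Marker lists of lung epithelial lineage, fibroblasts, endothelium, leukocytes and hepatocytes had 0 of 21 genes tested, and the largest summed level was 0.339 FPKM in WT and 0.555 FPKM in TTC28-KO, for the 6 fibroblast genes (LUM at 0 in every library). The 4 endothelial genes summed to 0.107 to 0.115 FPKM in WT and to 0.318 to 0.319 FPKM in TTC28-KO. Mitochondrially encoded genes held 5.87% to 6.07% of counts in WT and 8.61% to 10.2% in TTC28-KO libraries, and the part of this shift in the results was not tested.

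IGFBP4 was 5.86-fold lower in the knockout, while IGFBP6 and IGF1R were 1.75-fold and 1.74-fold higher. INSR, IGFBP2, IGFBP3 and IGF2R were higher by 1.45-fold, 1.32-fold, 1.23-fold and 1.16-fold, and IRS1 was at 1.06-fold. IGFBP5 had no count and IGFBP7 had 7 counts over the 4 libraries. In bulk RNA, fewer cells with a transcript and less transcript per cell cannot be told apart. Of the 10 genes, 8 had at least 1 FPKM in at least 2 libraries and entered the fit over 13079 genes. IGFBP2 was nearest above this limit, with a second-highest value of 2.67 FPKM, and IGFBP7 nearest below it, at 0.0636 FPKM. Past an adjusted p of 0.05 (edgeR's quasi-likelihood test, Benjamini-Hochberg) were 7 of the 8, 6 higher and 1 lower, against 50.3% of the tested genes past it, 25.1% higher and 25.2% lower. Separate FPKM ranges of WT and TTC28-KO were seen for 7 of the 8, against 75.5% of the tested genes. Nothing is read from these counts, since the set was chosen on this contrast.

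**Figure D1:**
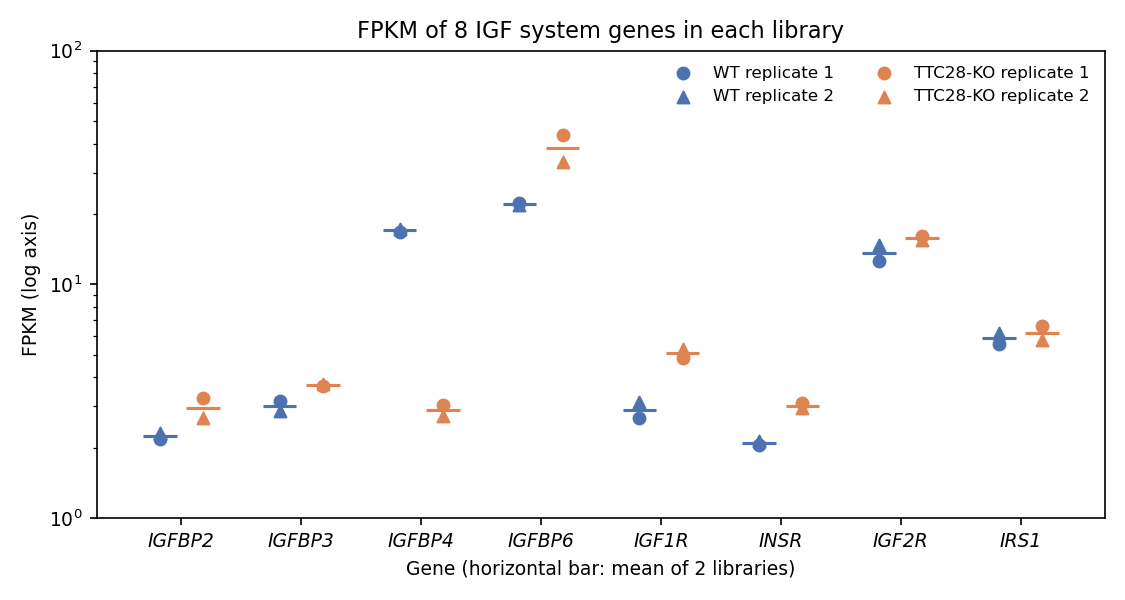
FPKM (log axis) of the 8 tested genes in each of the 4 libraries, with WT in blue, TTC28-KO in orange, circles for replicate 1, triangles for replicate 2 and a horizontal bar for each group's mean. IGFBP4 drops from 16.7 and 17.3 FPKM to 3.05 and 2.74 FPKM, and only the IRS1 values of the groups overlap.

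Transcripts of the ligands were almost absent. IGF1 had 1 count in each WT library and 0 in each TTC28-KO library, IGF2 had 1 count in all, and INS had 0. These low counts are uncertain, because exonic bases are shared with other entries. For IGF2, 73.7% are shared with a second gene entry of the same name on the same strand, which had 0 counts. For IGF1, 82.4% are shared with HELLPAR on the opposite strand, which had 96 to 138 counts. How the counting treated shared reads was not stated.

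IGFBP4 encodes a binding protein known mainly for restraining IGF action until the protease PAPP-A cuts it. IGFBP4 (ENSG00000141753, hg38 chromosome 17, 40443461 to 40457731, plus strand) had 16.7 and 17.3 FPKM in WT replicates 1 and 2 and 3.05 and 2.74 FPKM in TTC28-KO replicates 1 and 2. In the same order the raw counts were 964, 1038, 187 and 147. Both knockout libraries lay far below both wild-type libraries. The means were 17.0 ± 0.423 FPKM (SD, n = 2) in WT and 2.89 ± 0.222 FPKM (SD, n = 2) in TTC28-KO, a log2 fold change of -2.55 (SE 0.103), which left 17.1% of the wild-type level. Among the 13079 tested genes, 36 had a more negative log2 fold change. In the authors' deposited table the log2 fold change of IGFBP4 was -2.57. The 250 bases before the RefSeq start of IGFBP4 are shown because this gene changed most. They lie at chr17:40443200-40443449 of GRCh38.p14 on the plus strand, with 71.6% G and C against a median of 58% over all RefSeq promoter windows of that length. Capitals mark a TATA box (TATAAA), whose first base lies 29 bases before the start, and a GC box (GGGCGG), found here on the opposite strand.

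IGFBP4: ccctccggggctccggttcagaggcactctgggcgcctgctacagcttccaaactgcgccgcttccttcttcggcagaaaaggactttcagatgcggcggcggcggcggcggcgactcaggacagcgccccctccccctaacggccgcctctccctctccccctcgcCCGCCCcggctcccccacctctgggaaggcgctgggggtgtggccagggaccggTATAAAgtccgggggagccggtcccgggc

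IGFBP6, whose product prefers IGF-II over IGF-I, was the most abundant of the 10 transcripts in both groups. IGFBP6 (ENSG00000167779, chromosome 12, 53097436 to 53102345, plus strand) had 22.2 and 22.0 FPKM in WT replicates 1 and 2 and 43.5 and 33.5 FPKM in TTC28-KO replicates 1 and 2. Both knockout libraries were above both wild-type libraries, but they differed from each other by more than the wild-type libraries did. The means were 22.1 ± 0.194 FPKM (SD, n = 2) and 38.5 ± 7.10 FPKM (SD, n = 2), a log2 fold change of 0.81 (SE 0.106). The wild-type excess of IGFBP6 over IGFBP4 was slight, with FPKM ratios of 1.33 and 1.27, and in the knockout libraries the ratios were 14.3 and 12.2.

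IGFBP3 and IGFBP2 were expressed at much lower levels. IGFBP3 (ENSG00000146674, chromosome 7, 45912245 to 45921874, minus strand), the main carrier of IGFs in serum, had 3.16, 2.87, 3.66 and 3.75 FPKM in WT replicates 1 and 2 and TTC28-KO replicates 1 and 2. IGFBP2 (ENSG00000115457, chromosome 2, 216632828 to 216664436, plus strand), a binding protein with an integrin-binding motif, had 2.19, 2.31, 3.26 and 2.67 FPKM in the same order. Both were higher in each knockout library than in each wild-type library, by small margins. The log2 fold changes were 0.30 (SE 0.105) for IGFBP3 and 0.40 (SE 0.122) for IGFBP2. Single libraries moved these values. IGFBP2 was at 0.26 without TTC28-KO replicate 1, at 0.53 without TTC28-KO replicate 2, and at 0.37 and 0.44 without WT replicate 1 or 2. IGFBP3 was at 0.37 and 0.23 without WT replicate 1 or 2, and at 0.33 and 0.28 without TTC28-KO replicate 1 or 2.

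IGFBP5 and IGFBP7, both known from stromal and senescent cells, were not expressed at a measurable level. IGFBP5 (ENSG00000115461, chromosome 2, 216672105 to 216695525, minus strand) had 0 counts in each library, which allows up to 3 counts per library, or 0.0167 to 0.0191 FPKM (counting error only). IGFBP7 (ENSG00000163453, chromosome 4, 57030773 to 57110385, minus strand) had 0 and 4 counts in WT replicates 1 and 2 and 0 and 3 counts in TTC28-KO replicates 1 and 2. No fold is given for IGFBP7, and 13.99% of its exonic bases are shared with POLR2B, which had 2236 to 3393 counts, on the opposite strand. Whether strand was used in counting was not stated.

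The make-up of the IGFBP transcripts changed more than their total. The summed FPKM of the 6 IGFBP genes was 44.3 and 44.5 in the WT libraries and 53.5 and 42.7 in the TTC28-KO libraries, so the groups overlapped. IGFBP6 was 50.2% and 49.3% of that sum in WT and 81.4% and 78.4% in TTC28-KO libraries. IGFBP4 went the other way, from 37.8% and 38.9% to 5.70% and 6.41%. IGFBP3 (6.44% to 8.79%) and IGFBP2 (4.93% to 6.26%) stayed small parts in all 4 libraries. Such shares depend on one another, since they add up to the whole.

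**Figure D2:**
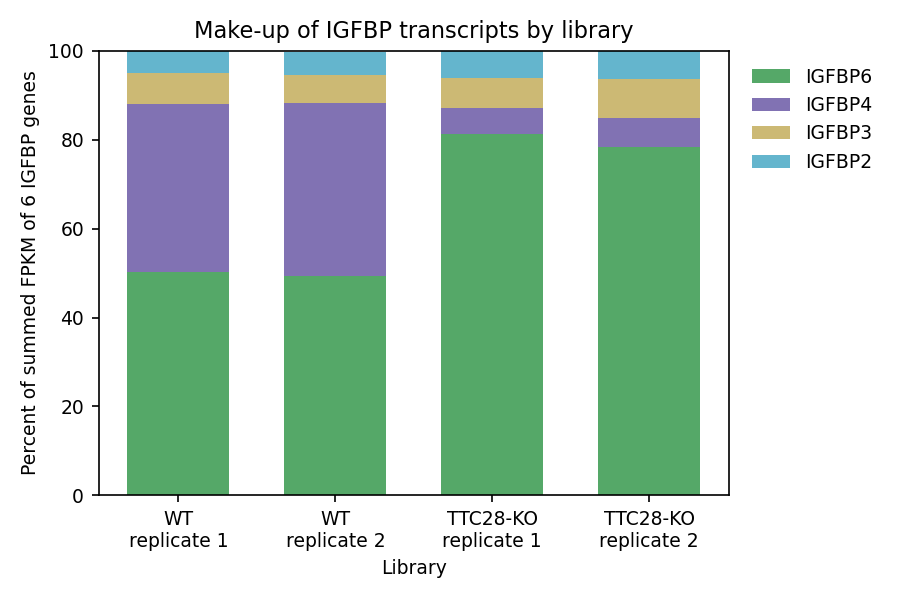
Stacked bars give, for each of the 4 libraries, the percent of the summed FPKM of the 6 IGFBP genes that each gene held. IGFBP6 (green) is 50.2% and 49.3% in the WT libraries and 81.4% and 78.4% in the TTC28-KO libraries, while IGFBP4 (purple) shrinks, and IGFBP5 and IGFBP7 are too small to be drawn.

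Both receptor tyrosine kinase genes were higher in the knockout. IGF1R (ENSG00000140443, chromosome 15, 98648539 to 98964530, plus strand) had 2.68 and 3.14 FPKM in WT replicates 1 and 2 and 4.84 and 5.27 FPKM in TTC28-KO replicates 1 and 2. INSR (ENSG00000171105, chromosome 19, 7112255 to 7294034, minus strand) had 2.04 and 2.13 FPKM against 3.09 and 2.95 FPKM. For each gene the groups lay apart by more than the spread within them. The log2 fold changes were 0.80 (SE 0.0844) for IGF1R and 0.54 (SE 0.0834) for INSR. IGF1R exceeded INSR in every library, with FPKM ratios of 1.31 and 1.48 in WT and 1.57 and 1.79 in TTC28-KO libraries. The sum of both was 4.99 ± 0.382 FPKM (SD, n = 2) in WT and 8.07 ± 0.209 FPKM (SD, n = 2) in TTC28-KO.

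The upstream windows of IGF1R and INSR are shown because these related receptor genes were higher together. They span chr15:98648289-98648538 on the plus strand and chr19:7294415-7294664 on the minus strand of GRCh38.p14, with 81.2% and 78.4% G and C. Capitals mark GC boxes (GGGCGG on either strand), of which IGF1R has 2 and INSR 4. In INSR, 3 of these overlap at their ends and read as 1 run.

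IGF1R: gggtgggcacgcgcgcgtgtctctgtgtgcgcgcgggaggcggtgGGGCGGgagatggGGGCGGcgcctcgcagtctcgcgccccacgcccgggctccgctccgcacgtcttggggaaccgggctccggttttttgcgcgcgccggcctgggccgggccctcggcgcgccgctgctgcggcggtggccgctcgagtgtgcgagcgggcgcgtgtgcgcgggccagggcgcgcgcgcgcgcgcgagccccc

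INSR: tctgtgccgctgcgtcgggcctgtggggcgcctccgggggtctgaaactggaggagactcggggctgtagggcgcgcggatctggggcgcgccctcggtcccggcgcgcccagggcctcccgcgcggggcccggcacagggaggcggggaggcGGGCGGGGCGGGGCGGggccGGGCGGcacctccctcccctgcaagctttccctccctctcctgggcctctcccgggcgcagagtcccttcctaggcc

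RefSeq windows were matched for 9 of the 10 genes, with 11 starts because IGFBP2 has 3, and 5 motifs were searched on both strands of each window. A GC box was in the windows of IGFBP3, IGFBP4, IGFBP6, IGF1R, INSR, IGF2R and IRS1 and in 2 of the IGFBP2 windows, against 42.6% of 35116 windows of all genes. The TATAAA of IGFBP4 had no counterpart in the other windows of these genes, and 10.7% of all windows hold it. IGF2R had 3 E-boxes (CACGTG, in 6.34% of all windows), and IGFBP6 had 1 FOXO core (GTAAACA, in 2.98%). A CCAAT box (CCAAT, in 32.01%) was found only in the IGFBP2 window that starts at base 216659317 of chromosome 2. These are letter matches and not measured binding sites.

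IGF2R (ENSG00000197081, chromosome 6, 159969099 to 160113507, plus strand) was the most abundant receptor transcript. It had 12.5 and 14.7 FPKM in WT replicates 1 and 2 and 16.1 and 15.5 FPKM in TTC28-KO replicates 1 and 2. The groups did not overlap, although WT replicate 2 came close to the knockout values. The log2 fold change was 0.22 (SE 0.0730), and it was 0.11 without WT replicate 1 and 0.33 without WT replicate 2. The ratio of IGF2R to IGF1R was 4.68 ± 0.00306 (SD, n = 2) in WT and 3.13 ± 0.270 (SD, n = 2) in TTC28-KO libraries.

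IRS1 (ENSG00000169047, chromosome 2, 226731317 to 226799759, minus strand), whose product docks at both tyrosine kinase receptors, had 5.53 and 6.21 FPKM in WT replicates 1 and 2 and 6.61 and 5.79 FPKM in TTC28-KO replicates 1 and 2. The groups overlapped, and the log2 fold change was 0.08 (SE 0.0811), about the size of its standard error. Of the other IRS genes, IRS2 had 1, 9, 0 and 1 counts in the same order and IRS4 had 0 in each library.

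Ordered by mean FPKM, the wild-type levels ran from IGFBP6 (22.1) over IGFBP4 (17.0), IGF2R (13.6), IRS1 (5.87), IGFBP3 (3.01), IGF1R (2.91) and IGFBP2 (2.25) to INSR (2.08), IGFBP7 and IGFBP5. The neighbours IGFBP3 and IGF1R overlapped, as did IGFBP7 and IGFBP5. In the knockout the order was IGFBP6 (38.5), IGF2R (15.8), IRS1 (6.20), IGF1R (5.06), IGFBP3 (3.71), INSR (3.02), IGFBP2 (2.97), IGFBP4 (2.89), IGFBP7 and IGFBP5. Here INSR overlapped IGFBP2, IGFBP2 overlapped IGFBP4, and IGFBP7 overlapped IGFBP5. IGFBP4 thus went from rank 2 to rank 8, and IGF1R from rank 6 to rank 4.

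The fold changes were also set beside those of the chromosomal neighbourhood, as the median of the 25 tested genes on each side. Neighbours of IGFBP4, IGF1R and INSR had medians of -0.06, 0.05 and -0.00191, small against the changes of these genes. Those of IGFBP2 had a median of 0.11, and with it removed IGFBP2 was at 0.30 and no longer past the threshold. The neighbours of IGFBP6, on chromosome 12, had a median of 0.32, and with it removed IGFBP6 was at 0.48. The neighbours of IGFBP3 and IGF2R were lower in the knockout, with medians of -0.37 and -0.19, and with these removed IGFBP3 was at 0.68 and IGF2R at 0.41. For IRS1 the median of 0.18 exceeded the gene's own value, which came to -0.10. Scaling each library to the same FPKM sum (TPM) moved the median of the tested genes by -0.16, and on that scale, as log2(TPM + 1), IGFBP6 was at 0.62, IGF1R at 0.59, INSR at 0.33, IGFBP2 at 0.20, IGFBP3 at 0.12, IGF2R at 0.05, IRS1 at -0.08 and IGFBP4 at -2.59.

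**Figure D3:**
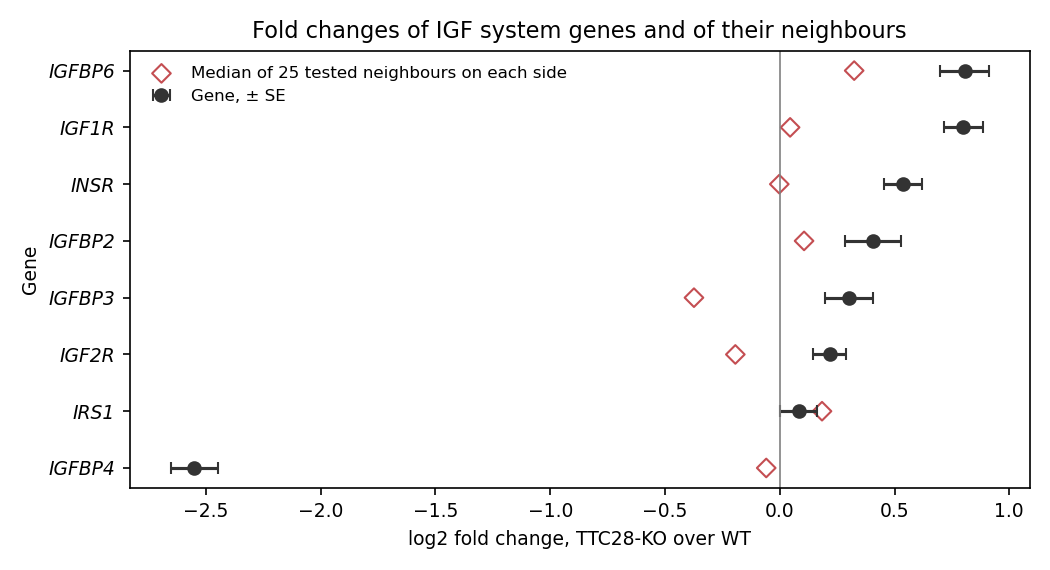
Black points give the log2 fold change, TTC28-KO over WT, of each tested gene with its standard error, and open red diamonds the median of the 25 tested genes on each side. IGFBP4 stands at -2.55 with its neighbours near 0, while the diamond of IGFBP6 lies at 0.32 and that of IGFBP3 at -0.37.

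Among 10787 other tested protein-coding genes, those with the pattern most like IGFBP4 were ZNF532, NEURL1, IGFBPL1 and DKK1, at Euclidean distances of 0.116, 0.223, 0.227 and 0.274 of centred log2 CPM over the 4 libraries. IGFBPL1, an IGFBP-like gene, had 2.83 and 3.43 FPKM in the WT libraries and 0.591 and 0.487 FPKM in the TTC28-KO libraries. DKK1, a secreted Wnt antagonist, shares 9.61% of its exonic bases with PRKG1-AS1 on the opposite strand. Most like IGFBP6 were BDH2, PTPRR, SLC16A3 and METRNL, at distances of 0.0441, 0.0663, 0.0840 and 0.0931, each higher in TTC28-KO replicate 1 than in replicate 2. BDH2 shares 11.7% of its exonic bases with SLC9B2 on the same strand. With 4 libraries in 2 groups, such a distance mostly compares fold changes.

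The other genes of insulin and IGF signalling were taken from 8 lists of 77 genes, of which 58 were tested. The lists were chosen with earlier results of these data known. Their counts, shares, medians and p-values are therefore a description and not independent support. Of these, 25 rose, 13 fell and 20 missed the threshold, at a median log2 fold change of 0.11, against -7.07e-05 over the tested genes. On the TPM scale 13 were higher and 18 lower, and with the local median removed 23 and 7, so higher calls were 65.8% of the list calls here, 41.9% on the TPM scale and 76.7% with the local median removed. Over all genes past the threshold the same shares were 49.9%, 25.5% and 50.8%, so the share on the TPM scale was lower for the lists and for the tested genes alike. The calls rest on the same edgeR fit, in which 50.3% of genes passed, 25.1% higher and 25.2% lower. These shares belong beside the counts of each list below.

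Of 3 further binding protein genes, only IGFBPL1 was tested, and it fell, with a log2 fold change of -2.52 (SE 0.311). IGFBPL1 reached 1 FPKM only in the WT libraries. With such low knockout values it could enter the fit only as a gene lower in the knockout, so no p-value is given for it. Its counts were 81, 102, 18 and 13. IGFBP1 had 8 counts in all. Among IGFBP proteases and their inhibitors, 2 of 6 tested genes rose, 2 fell and 2 missed the threshold. The stanniocalcin genes STC1 and STC2, whose products inhibit PAPP-A, fell by 0.55 and 0.55 on the log2 scale (SE 0.0782 and 0.0637, adjusted p = 7.00e-05 and 1.42e-05). PAPPA itself was at 0.0857 FPKM at most and was not tested. ADAM9, a membrane metalloprotease, was at 0.27 (adjusted p = 0.00252), a call lost on the TPM scale and without WT replicate 1. PRSS23 was at 0.67 (adjusted p = 2.87e-06). It was listed, and counted among the rises above, as a serine protease gene with no action on IGFBPs implied. PRSS23 shares 11.9% of its exonic bases with FZD4 on the opposite strand.

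Among adaptors and phosphatases at the receptors, 4 of 11 tested genes rose, 4 fell and 3 missed the threshold. GRB14, which encodes an adaptor that restrains the insulin receptor, rose from 1.07 and 0.596 FPKM to 2.37 and 2.93 FPKM (log2 fold change 1.67, SE 0.237). Only 1 WT library of GRB14 reached 1 FPKM. The gene thus met the filter through its high knockout libraries, so no p-value is given for it. With the local median removed GRB14 was at 1.30. SH2B1 and SHC1, whose products bind activated receptors, rose by 0.53 and 0.37 on the log2 scale, SHC1 not past the threshold on the TPM scale. SHC1 shares 7.72% of its exonic bases with PYGO2 on the same strand. PTPN11, the gene of the phosphatase SHP2, was at -0.43, and SOS2, a Ras exchange factor gene, was at -0.53 (adjusted p = 8.26e-05 and 0.000114), with SOS2 at -0.22 once the local median was removed. SH2B2 was at -0.52, a call lost without WT replicate 2, without TTC28-KO replicate 1 and with the local median removed. GRB10 had 0 counts in each library.

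The PI3K and AKT branch had 12 genes that rose, 3 that fell and 6 that did not pass, of 21 tested, at a median of 0.26. Over all tested genes, 25.1% passed as higher and 25.2% as lower. Of the 12 rises, FOXO1 reached 1 FPKM only in the knockout libraries (1.05 and 1.24, against 0.588 and 0.689 in WT). With such low WT values it could enter the fit only as a gene higher in the knockout. Among the rises were PIK3CB, the gene of a catalytic subunit (0.48, SE 0.0660, adjusted p = 6.08e-05), and TSC1, a brake on mTORC1 (0.43, SE 0.0685, adjusted p = 0.000174). RHEB, the activator of mTORC1, fell by 0.37 on the log2 scale (adjusted p = 0.000327). PHLPP2, an AKT phosphatase gene, and the transcription factor gene FOXO3 were at -0.39 and -0.26, but both calls were lost with the local median removed, and that of FOXO3 also without WT replicate 2. PIK3CB stood at 0.21 with the local median removed, still past the threshold. AKT1 was at -0.08 and did not pass. PIK3R2 had 2 counts in all, and 87.2% of its exonic bases are shared with AC007192.1 on the same strand, which had 0 counts. The level of PIK3R2 therefore cannot be read from this table.

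Around IGF2R, 2 of 10 tested genes of mannose 6-phosphate receptor traffic rose, 1 fell and 7 did not pass. FURIN, the convertase known to cut the precursors of the IGF1R and INSR proteins, rose by 0.45 on the log2 scale (SE 0.0635, adjusted p = 7.20e-05), from 18.2 and 19.1 to 26.2 and 24.5 FPKM. GNPTAB, an enzyme subunit that makes the mannose 6-phosphate tag, was at 0.36, not past the threshold on the TPM scale. M6PR, the gene of the smaller mannose 6-phosphate receptor, fell from 37.5 and 37.3 to 25.5 and 23.8 FPKM (log2 fold change -0.60, adjusted p = 5.50e-06). It shares 29.3% of its exonic bases with PHC1 on the opposite strand and stood at -0.20 once the local median was removed.

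Of 6 tested genes of other cell-surface partners of IGFBPs, 4 rose, 1 fell and 1 did not pass. LRP1, which encodes a large endocytic receptor that binds IGFBP3, rose from 1.998 and 2.44 to 6.53 and 6.22 FPKM (log2 fold change 1.52, SE 0.0820, adjusted p = 1.98e-08). With the local median removed LRP1 was at 1.23. ITGA5, the alpha subunit of a fibronectin receptor that IGFBP2 can bind, rose from 6.65 and 7.14 to 15.2 and 14.9 FPKM (1.13, SE 0.0646, adjusted p = 3.57e-08). It stood at 0.84 with the local median removed. ITGAV was at 0.46, a call lost with the local median removed. CAV1 was at -0.23, a call lost without WT replicate 2, and its sign turned (0.0693) once the local median was removed. Of the genes of IGF mRNA-binding proteins, which bind transcripts and not the hormones, IGF2BP2 rose by 0.54 on the log2 scale (0.32 with the local median removed), IGF2BP1 was at -0.32, a call lost with the local median removed, and IGF2BP3, not past the threshold, was at -0.15.

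**Figure D4:**
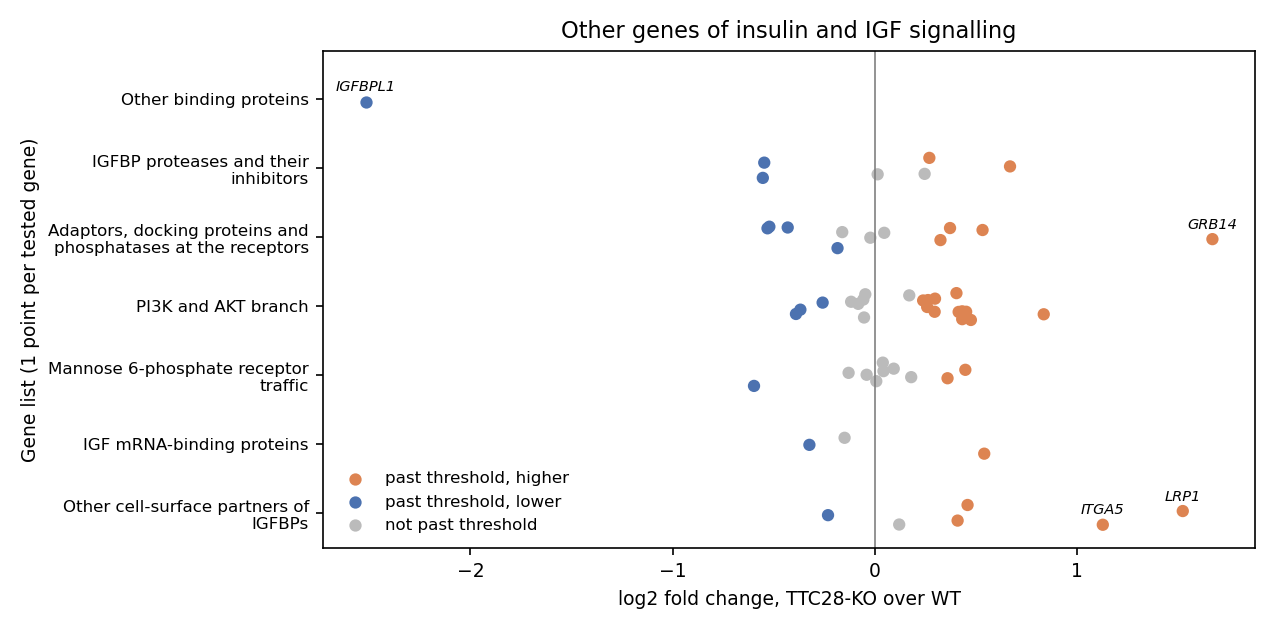
Each point is a tested gene of 7 lists of insulin and IGF signalling, placed by its log2 fold change, TTC28-KO over WT, and coloured by whether it passed the threshold and in which direction (the ligand list had no tested gene, and vertical scatter has no meaning). IGFBPL1 lies at -2.52, and GRB14, LRP1 and ITGA5 lie beyond 1.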

How the data were processed

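The submitters' processing notes name HISAT2 2.0.5 and hg38. The tool that counted reads, whether it used strand, and its gene annotation were not given in the sources used here. The deposited table holds raw counts per gene and library, per the file headers, and FPKM values that the authors made from them. It also holds the authors' deposited log2 fold change, from an unnamed test. Groups and replicate numbers come from the labels. The members and lists were chosen with earlier results of these data known.

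Testing covered the 13079 genes that reached 1 FPKM in 2 or more libraries, with edgeR 4.0.16 (R 4.3.3) on counts, two-sided, with TMM factors from 0.978 to 1.02 and no covariates. P-values were adjusted by Benjamini-Hochberg over the tested genes at 0.05, and standard errors come from the same fit. An exact permutation of 2 against 2 libraries was not used, since it cannot pass that threshold. Genes named are the 10 members, TTC28, the ligands, up to 3 list genes past the threshold with the smallest p per direction, and for IGFBP4 and IGFBP6 the 4 nearest patterns. Genes named beside these (IGFBP1, PAPPA, IRS2, IRS4, GRB10, AKT1, FOXO1, PIK3R2, IGF2BP3) were chosen after their values were seen. Some genes that the rule or the marker lists hold are not reported here.

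Alternatives were filters of 0.1 FPKM, 5 FPKM or none, median-of-ratios scaling, DESeq2 1.42.0, limma 3.58.1 on log2(FPKM + 1), log2(FPKM + 0.1) and log2(TPM + 1), removal of the local median of 25 tested genes on each side, a replicate block and leaving out each library. The fits, other than those with another filter or a library left out, were tested on simulated data. In that simulation only a small part of the genes was changed, far below the share called in these data. It therefore cannot show how the fits behave at such a share. Exon overlaps come from GENCODE release 29, whose coordinates and exon lengths match the table for the 10 members. Upstream sequences are from RefSeq (GRCh38.p14), cut to the 250 bases before each start.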

Additional observations from a re-analysis of the deposited data

How the results depend on the processing

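The count of genes past the threshold, 6581 of 13079, was 4346 with a filter of at least 5 FPKM, where fewer genes (7490) were tested, and 4854 to 6456 when 1 library was left out. Of the pathway lists, 25 genes higher became 13 on the TPM scale, and 13 lower became 7 with the local median removed. CAV1, at -0.23, turned to 0.0693 with the local median removed. The cause of these changes was not tested. With a replicate block 7108 genes passed, and 26 list genes were higher and 14 lower. The labels give the replicates only a number, and deviations of same-numbered libraries from their group means had a correlation across genes of -0.00144. The log2 fold change of IGFBP4 ran from -2.63 to -2.21 over 14 alternatives and that of IGFBP6 from 0.48 to 0.97. IGF1R ran from 0.59 to 0.91 and INSR from 0.33 to 0.57 over 13 alternatives, which leave out the 5 FPKM filter. IGFBP3 (0.12 to 0.68), IGFBP2 (0.20 to 0.53) and IGF2R (0.05 to 0.41) kept their sign, and IRS1 (-0.10 to 0.17) did not. Fits with a library left out aside, the call of IGFBP2 was lost with limma on each scale and with the local median removed. That of IGFBP3 was lost with DESeq2 and on the TPM scale, and that of IGF2R with limma on each scale. The calls of IGFBP4, IGFBP6, IGF1R and INSR were kept. None of these calls, kept or lost, is support, since the set was chosen on this contrast. With 2 libraries per group and 1 library left out, the lone library is assumed to vary like the other group. For IGFBP5 and IGFBP7 a difference was not detectable at this depth, and the low counts of the ligands were not tested for the effect of shared exonic bases.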
